A study of Mus musculus with 2 samples.

Results

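The 9 genes described here are the 5 mouse dopamine receptor genes (Drd1, Drd2, Drd3, Drd4 and Drd5) and 4 genes of the signalling machinery that dopamine-receptive neurons use (Ppp1r1b, Adcy5, Arpp21 and Adora2a). They were taken by symbol from the 43346 Ensembl genes measured, each symbol matching 1 row of each gene table, so all 9 were found. RNA came from whole midbrain of newborn mice of strain B6NTac;B6NCrl/Lap at postnatal day 0, with males and females pooled and no treatment or engineered allele given in the labels. The study holds 1 group of 2 libraries, described as separate isolates: 15 animals were pooled for replicate 1, and the size of the pool for replicate 2 is not given. With 1 group there is no contrast between conditions, so levels are compared between genes within each library, and between the libraries as a measure of spread.

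Dopamine acts through G-protein-coupled receptors of 2 classes. The D1-like receptors, products of Drd1 and Drd5, couple to the stimulatory G proteins Gs and Golf and raise cyclic AMP, whereas the D2-like receptors, products of Drd2, Drd3 and Drd4, couple to Gi and Go and lower it. Adcy5 encodes an adenylyl cyclase that makes much of the cyclic AMP in striatal neurons, and Ppp1r1b encodes DARPP-32, which inhibits protein phosphatase 1 once protein kinase A has phosphorylated it. Arpp21 encodes a cyclic AMP-regulated phosphoprotein with an R3H domain, and Adora2a encodes the adenosine receptor of type 2A, found together with the D2 receptor on indirect-pathway neurons of the striatum. In the midbrain the D2 receptor is best known as the autoreceptor of dopamine neurons.

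The libraries held 46685706 counts in replicate 1 and 72779229 in replicate 2. All 8 genes listed as midbrain markers, such as Otx2 and En2, stood at 1 TPM or more in both libraries. The listed genes, Meis2 among them, need not be confined to midbrain. Of 11 dopamine neuron markers 10 also stood at 1 TPM or more in both libraries, with the transcription factor Pitx3 at 0.485 TPM the exception. Of 9 telencephalic markers 6 were below 1 TPM in both libraries, and their summed level was 5.89 TPM in replicate 1 and 4.58 in replicate 2. TPM is the authors' abundance scale, counts per transcript length rescaled to a fixed total. Protein-coding genes outside the mitochondrion held only 21.1% of that total in replicate 1 and 18.2% in replicate 2, so 1 TPM here is worth 4.74 and 5.48 TPM on a scale of those genes alone. In bulk tissue, fewer cells of a type and less RNA per cell cannot be told apart.

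The set was spread over a wide range of levels. Arpp21 and Adcy5 were well above the rest, Drd2 came next, and Adora2a, Ppp1r1b, Drd1, Drd5 and Drd4 lay below 1 TPM in both libraries, while Drd3 had no count in either. Thus 3 of the 9 genes reached 1 TPM in both libraries, against 27.7% of all Ensembl genes and 53.8% of protein-coding genes. On the protein-coding scale 8 of the 9 reached 1 TPM, against 34.4% of all Ensembl genes and 63.4% of protein-coding genes, so how many count as detected depends on the scale.

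**Figure D1:**
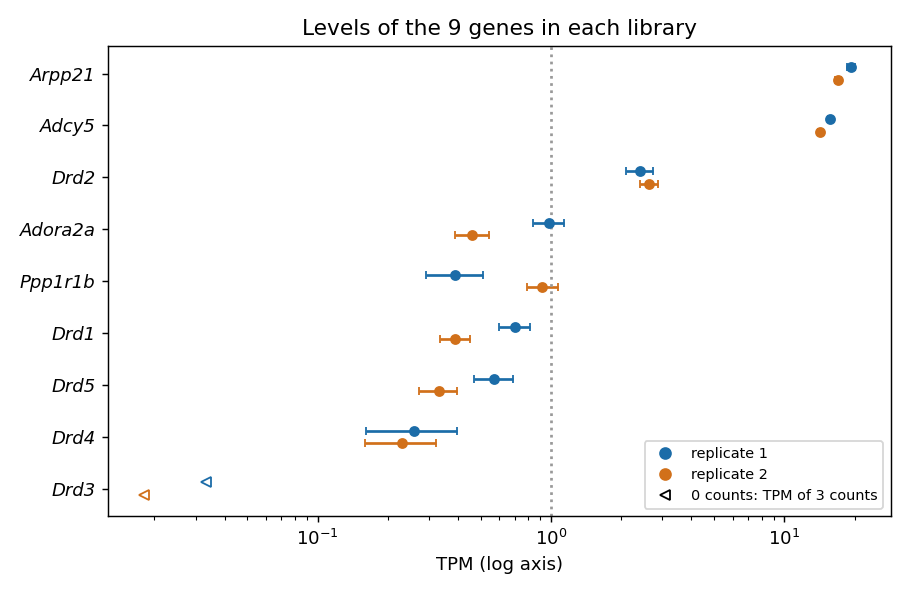
Level of each of the 9 genes in each library, on a log axis of TPM. Bars show the exact Poisson interval of each count rescaled to TPM, which covers counting error only. Arpp21 and Adcy5 lie between 14.2 and 19.4 TPM, Drd2 at 2.40 and 2.64 TPM, and the remaining genes below 1 TPM; Drd3, at 0 counts, is drawn as an open triangle at the level of 3 counts.

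Among the receptors Drd2 led. It is a gene on the plus strand of chromosome 9 (chr9:49340627-49408177, mm10; ENSMUSG00000032259), and it stood at 2.40 TPM from 234 counts in replicate 1 and 2.64 TPM from 476 counts in replicate 2 (mean 2.52 ± 0.170, SD, n = 2). The exact Poisson 95% intervals of those counts, which cover counting error only, run from 205 to 266 and from 434 to 521. The level exceeded that of 54.3% of protein-coding genes. Only 53.8% of protein-coding genes reached 1 TPM in both libraries, so many of those ranked below Drd2 were under that threshold. Over the 5 receptor genes, whose TPM summed to 3.93 and 3.59, Drd2 held 61.1% in replicate 1 and 73.5% in replicate 2.

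D2 receptor mRNA is known in a long and a short form, which differ by 1 cassette exon in the stretch coding for a cytoplasmic loop of the receptor. In GENCODE M21 the exon is number 6 of the 8 exons of Drd2-201, spans chr9:49403194-49403280 on the plus strand, and is coding along all of its 87 bases, a multiple of 3, so that keeping or skipping it leaves the reading frame intact. It is printed here from the GENCODE M21 sequence of Drd2-201 because it is the stretch that tells the forms apart. The exon is in capitals, and the 20 transcript bases on either side, from the neighbouring exons, are in lower case.
Drd2 exon 6: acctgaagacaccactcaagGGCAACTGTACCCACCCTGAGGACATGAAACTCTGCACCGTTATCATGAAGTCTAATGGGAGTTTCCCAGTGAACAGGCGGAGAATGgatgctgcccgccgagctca
The authors' transcript table lists 1 transcript for Drd2, of 1549 bases, so its share was 100% in both libraries by construction and the forms could not be separated. The M21 version of that transcript is 998 bases longer. The level of Drd2 per length therefore rests on the shorter model, as does that of Drd4, whose M21 transcript is 1465 bases longer than the one used, and to a lesser degree that of Drd5, 350 bases longer.

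The D1-like receptors were lower. Drd1 (chr13:54051183-54055705, minus strand) stood at 0.70 TPM from 175 counts in replicate 1 and 0.39 TPM from 179 counts in replicate 2. Drd5 (chr5:38319367-38322518, plus strand) stood at 0.57 TPM from 111 counts and 0.33 TPM from 119 counts. Both genes were higher in replicate 1, and their ranges overlapped each other. Drd2 exceeded Drd1 by 1.64 and 2.48 on the log2 scale of TPM + 0.1 (mean 2.06 ± 0.59, SD, n = 2), and Drd5 by 1.90 and 2.67 (mean 2.29 ± 0.55), at least 2-fold in each library. Summed TPM of the D2-like genes was 2.09 times that of the D1-like genes in replicate 1 and 3.99 times in replicate 2, so the direction was shared and the size was not.

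Of the other D2-like receptors, Drd4 (chr7:141292006-141296464, plus strand) was low and alike in the libraries, at 0.26 TPM from 21 counts and 0.23 TPM from 34 counts, with Poisson intervals of 13.0 to 32.1 and 23.5 to 47.5 counts. Drd3, the receptor best known from the ventral striatum and islands of Calleja (chr16:43754026-43822932, plus strand), had 0 counts in both libraries. The exact Poisson 95% interval of 0 counts runs up to 3.69 counts. The floor was set at 3 counts, or 0.0333 TPM in replicate 1 and 0.0180 in replicate 2. Against that floor, taken per library, the TPM estimate of Drd2 was 72.1-fold higher in replicate 1 and 147-fold higher in replicate 2. These ratios leave out the counting error of Drd2 and are not lower bounds. Drd3 was thus not detectable at this depth, which is not to say absent.

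The start regions of the receptor genes also differed in sequence. RefSeq promoters (GRCm38.p6, 250 bases before to 50 after each start) were found for 7 of the 9 genes, and Adora2a and Ppp1r1b had none in the table. The letters CG, which read the same on both strands, occurred 23 times in the 300 bases at the Drd2 start and 2 times at the Drd3 start. Of all 32851 promoters listed there, 94.6% hold the motif, 21.5% hold at least as many copies as Drd2 and 85.9% at least as many as Drd3. The 250 bases before each start are shown for the highest and the undetected D2-like gene, with CG in capitals (chr9:49340153-49340402 and chr16:43761971-43762220, both plus strand).
Drd2 promoter: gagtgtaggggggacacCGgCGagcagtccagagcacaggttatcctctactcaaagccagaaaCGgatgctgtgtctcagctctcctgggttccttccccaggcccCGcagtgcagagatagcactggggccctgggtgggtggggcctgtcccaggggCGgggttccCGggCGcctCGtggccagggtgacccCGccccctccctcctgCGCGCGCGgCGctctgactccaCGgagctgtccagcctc
Drd3 promoter: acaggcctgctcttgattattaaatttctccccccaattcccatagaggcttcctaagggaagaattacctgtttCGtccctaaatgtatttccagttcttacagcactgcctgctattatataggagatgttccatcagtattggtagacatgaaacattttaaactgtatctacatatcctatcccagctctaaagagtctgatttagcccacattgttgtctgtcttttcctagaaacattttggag
The first holds 15 copies and the second 1. The count did not order the genes by level: Drd5, at 0.450 TPM, had 38 copies in 300 bases, Adcy5, at 15.0 TPM, had 44, and the 9 listed starts of Arpp21, at 18.2 TPM over all its transcripts, had 1 to 12.

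Adcy5 (chr16:35154877-35305738, plus strand) stood at 15.7 TPM from 8122 counts in replicate 1 and 14.2 TPM from 13534 counts in replicate 2 (mean 15.0 ± 1.10, SD, n = 2), above 86.0% of protein-coding genes. Within the 10 adenylyl cyclase genes it ranked second in both libraries with 18.3% and 18.4% of their summed TPM. The calcium-stimulated Adcy1 ranked first with 34.2% ± 0.587, and Adcy2 came after Adcy5 with 11.3%. Adcy5 was higher than its closest relative Adcy6 by 1.53 ± 0.02 on the log2 scale, and lower than Adcy1 by a log2 ratio of -0.90 ± 0.03, which is under 2-fold. The cyclase associated with the striatum was thus 1 of several in midbrain, and Adcy10, the soluble cyclase, was at 0.

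Arpp21 (chr9:112065091-112235938, minus strand) stood at 19.4 TPM from 2777 counts in replicate 1 and 17.0 TPM from 4860 counts in replicate 2 (mean 18.2 ± 1.69, SD, n = 2), above 88.8% of protein-coding genes. Much of that level lay on transcripts that do not encode the protein. A 427-base processed transcript, Arpp21-219, received 75 and 89 counts, which is 2.70% and 1.83% of the gene's counts but 34.4% and 25.2% of its TPM. The 14 protein-coding transcripts received 46.6% and 54.8% of the counts and carried 5.52 and 6.25 TPM. A further 7 retained-intron transcripts received 35.2% and 28.3% of the counts. A transcript of 2991 bases that is absent from GENCODE M21, and so has no class here, received 11.9% and 11.2%. In total RNA, unspliced and intron-retaining molecules are measured beside mature mRNA.

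The order of Arpp21 and Adcy5 rested on those short and noncoding models. With all transcripts, Arpp21 was above Adcy5 by 0.30 and 0.26 on the log2 scale. Without transcripts under 500 bases it stood at 12.42 and 11.95 TPM, and the log2 ratio to Adcy5 turned to -0.34 and -0.24. With protein-coding transcripts only, which also leaves out the transcript without a class, the ratio was -1.49 and -1.17. The order of the highest pair thus depended on which Arpp21 transcripts were counted.

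**Figure D2:**
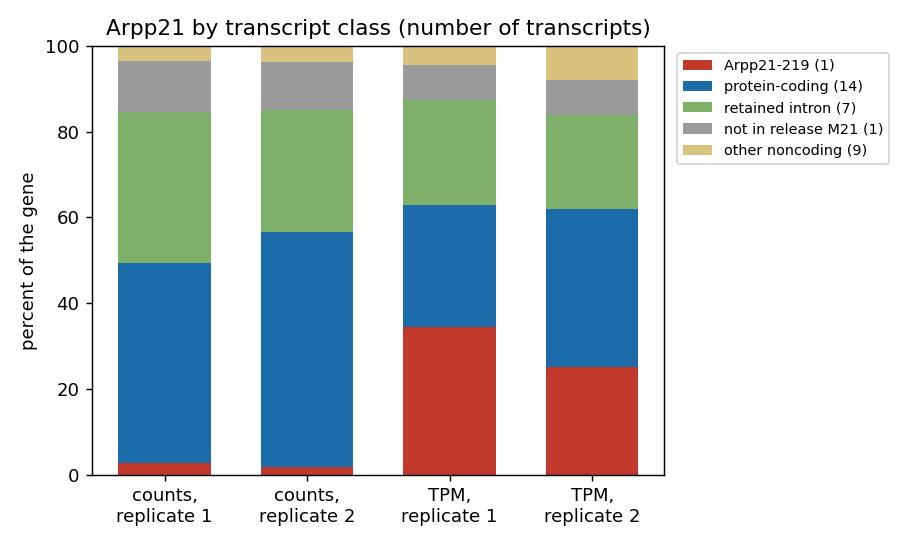
Share of the counts and of the TPM of Arpp21 by class of transcript in each library, in percent. The 427-base transcript Arpp21-219 takes 2.70% and 1.83% of the counts but 34.4% and 25.2% of the TPM, and protein-coding transcripts take 46.6% and 54.8% of the counts.

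An intron of Arpp21 holds Mir128-2, the source of miR-128-3p, a microRNA abundant in neurons. Its mature sequence, from RefSeq on GRCm38.p6 (chr9:112118644-112118664, minus strand), is shown because the gene lies within Arpp21 on the same strand, and its seed, bases 2 to 8, is in capitals.
miR-128-3p: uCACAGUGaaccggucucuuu
The Mir128-2 row had 0 counts in both libraries, which measured RNA over 200 nucleotides and so left mature microRNAs out. On the opposite strand the noncoding gene 2900079G21Rik overlaps the start of Arpp21 and had 100 counts in replicate 1 and 213 in replicate 2. The other 5 genes that overlap a member, Gm26560 at Drd5 and 1700003D09Rik at Ppp1r1b among them, were at 0 counts.

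Ppp1r1b (chr11:98348404-98357796, plus strand) stood at 0.39 TPM from 51 counts in replicate 1 and 0.92 TPM from 168 counts in replicate 2. The authors' credibility bounds ran from 0.400 to 0.844 TPM in replicate 1, so the value itself lay just below its lower bound, and from 0.810 to 1.20 in replicate 2, so the bounds of the libraries overlapped. All 51 counts of replicate 1 were assigned to the coding transcript Ppp1r1b-201. In replicate 2 that transcript received 103 counts and the retained-intron transcript Ppp1r1b-202 received 64.6, or 54.2% of the gene's TPM. These assignments are uncertain. On the authors' posterior means, Ppp1r1b-201 held 57.7% of the gene's TPM in replicate 1 and 42.9% in replicate 2. Ppp1r1b-202 held 7.23% and 39.5% on that measure. The coding transcript alone stood at 0.39 and 0.42 TPM, so the rise in the gene's TPM lay in the counts assigned to the intron-retaining form. Its relative Ppp1r1a, which encodes phosphatase inhibitor 1, was higher than Ppp1r1b by 5.08 ± 0.53 on the log2 scale, at 23.9 ± 3.63 TPM. Arpp21 exceeded Ppp1r1b by 4.69 ± 0.88.

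Adora2a (chr10:75316877-75334784, plus strand) stood at 0.98 TPM from 169 counts in replicate 1 and 0.46 TPM from 147 counts in replicate 2. It was the third of the 4 adenosine receptor genes in both libraries with 8.21% and 3.96% of their summed TPM. The inhibitory A1 receptor gene Adora1 held 83.1% ± 3.51, at 9.78 ± 0.219 TPM, and exceeded Adora2a by 3.67 ± 0.70 on the log2 scale. Drd2 exceeded Adora2a by 1.21 and 2.29, at least 2-fold in each library.

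Over all 36 pairs of the 9 genes, 25 differed by 2-fold or more, in the same direction, in each library and 30 had libraries that did not overlap. The same shares over pairs of all genes were not computed, so these counts describe the set and do not set it apart. Of the 25, 8 were pairs with Drd3, where the size of the ratio is set by the pseudocount of 0.1. From the top, the order by mean TPM was Arpp21, Adcy5, Drd2, Adora2a, Ppp1r1b, Drd1, Drd5, Drd4 and Drd3. Among the 8 pairs of neighbours, Adora2a and Ppp1r1b, Ppp1r1b and Drd1, and Drd1 and Drd5 overlapped, so the order of these 4 genes is not settled by 2 libraries. Adcy5 over Drd2, Drd2 over Adora2a and Drd4 over Drd3 were the neighbours that differed at least 2-fold in both.

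**Figure D3:**
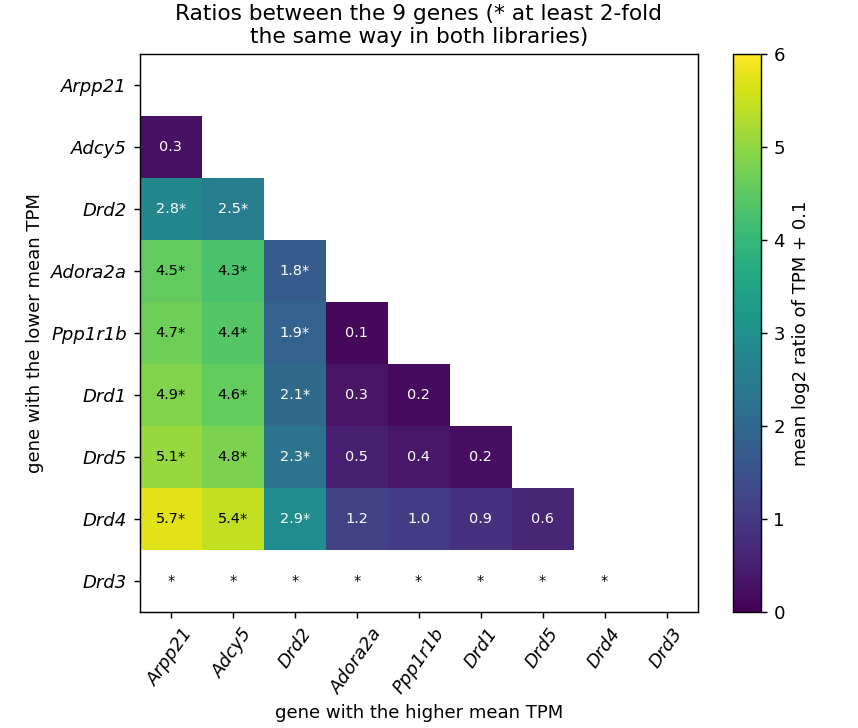
Mean log2 ratio of TPM + 0.1 over the 2 libraries for each pair of the 9 genes, with the higher gene on the x axis and the lower on the y axis; an asterisk marks a pair that differed by 2-fold or more, in the same direction, in each library. Ratios to Drd3, at 0 counts, carry only the asterisk, and the block of Adora2a, Ppp1r1b, Drd1, Drd5 and Drd4 holds none.

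The members spread between the libraries to different degrees. After scaling of the counts by TMM, which sets the median of all genes near 0, the log2 ratio of replicate 2 to replicate 1 was 1.11 for Ppp1r1b (95% 0.66 to 1.60, counting error only) and 0.42 for Drd2 (0.19 to 0.65). It was -0.80 for Adora2a (-1.13 to -0.48), -0.57 for Drd1 (-0.88 to -0.26) and -0.50 for Drd5 (-0.89 to -0.12). The ratio was 0.20 for Arpp21, 0.13 for Adcy5 and 0.08 for Drd4. Ppp1r1b was the 1 member of 8 with a ratio past 2-fold, against 9.21% of 18554 genes at least 2-fold higher and 7.76% at least 2-fold lower, and it no longer passed with protein-coding transcripts only (0.41). Without scaling, where the median of detected genes was -0.26, the TPM of Arpp21, Adcy5 and Drd4 was lower in replicate 2, while Ppp1r1b and Drd2 were higher and Adora2a, Drd1 and Drd5 lower on either footing.

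After TMM scaling, 5 of the 8 members with counts were higher in replicate 2 and 3 were lower. Among the higher were Ppp1r1b (1.11), Arpp21 (0.20) and Adcy5 (0.13), so the signal partners did not move 1 way. Drd1 and Adora2a, both lower in replicate 2, are known best from striatal projection neurons, so the markers of those cells were read beside them. Of 16 such markers 15 were at 1 TPM or more in both libraries, against 53.8% of protein-coding genes, with Sp9 at 0.565 TPM the exception. The listed genes need not be confined to striatum, so their levels do not show that striatal cells were present. Their summed level was 115.8 TPM in replicate 1 and 95.3 in replicate 2. The TMM-scaled log2 ratios of the 16 markers ran from -0.46 to 0.26 with a median of -0.02. None was past 2-fold, against 9.21% of 18554 genes at least 2-fold higher and 7.76% at least 2-fold lower. Among telencephalic markers, Dlx2 had 14 counts in replicate 1 and 59 in replicate 2, whereas Emx1 had 53 and 30 and Lhx6 had 91 and 49. The part of tissue from outside the midbrain in these ratios was not tested.

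**Figure D4:**
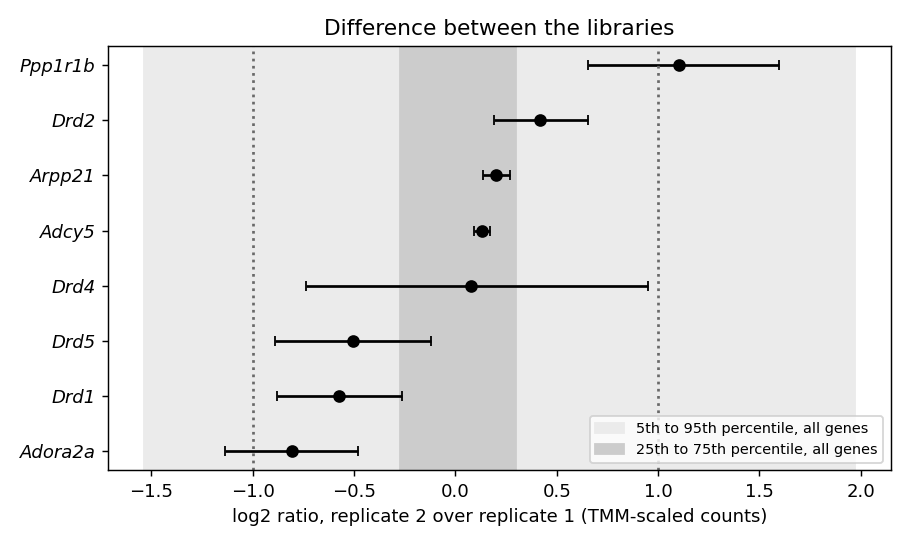
Log2 ratio of replicate 2 to replicate 1 after TMM scaling for the 8 members with counts, with the 95% interval of counting error as a bar, beside the spread of all 18554 genes. Ppp1r1b, at 1.11, is past the 2-fold line, and Adora2a, Drd1 and Drd5 lie below 0.

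The receptor genes were also set beside genes of the cells best known to carry them. Of 11 dopamine neuron markers 8 were above Drd2 in both libraries, while 3 (Foxa2, Lmx1b and Pitx3) were below it in both. Drd2 was below the dopamine neuron genes Slc6a3, the dopamine transporter, by a mean log2 ratio of -0.93 ± 0.26, and Th, the rate-limiting enzyme of dopamine synthesis, by -0.97 ± 0.12, neither of which reached 2-fold in both libraries; in replicate 1 alone both did, at -1.12 and -1.05. Drd1 was below Tac1, the substance P precursor of direct-pathway neurons, by a log2 ratio of -4.74 ± 0.25. Adora2a was below Penk, the enkephalin precursor of indirect-pathway neurons, by -3.32 ± 0.57. Both peptide genes are also expressed outside the striatum.

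The machinery downstream of the receptors was measured through 9 lists of 73 genes, of which 65 stood at 1 TPM or more in both libraries, with a median of mean TPM of 14.0, against 53.8% of protein-coding genes at that threshold. None of the 72 genes with a library ratio was past 2-fold in either direction. Over 18554 genes, 9.21% were at least 2-fold higher and 7.76% at least 2-fold lower in replicate 2. That wider set reaches down to a summed count of 10, so it is not matched to the lists in abundance. All 10 G-protein genes were detected, led by Gnas, the stimulatory alpha subunit, at 322 ± 37.6 TPM, Gnb1 at 83.3 ± 12.4 and Gnao1, the Go subunit, at 73.4 ± 6.87. Gnas exceeded Gnal, the Golf subunit that serves the products of Drd1 and Adora2a in striatum, by 4.05 ± 0.08 on the log2 scale, with Gnal at 19.4 ± 3.38 TPM. Both G-protein genes that stimulate cyclases were thus above all the receptors in level, while Gng7, the gamma subunit partnered with Golf, stood at 6.68 TPM.

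Of the other adenylyl cyclases 7 of 9 were detected. All 6 protein kinase A genes were detected, with the regulatory Prkar1b at 69.6 TPM, the catalytic Prkacb at 65.1 and Prkar1a at 52.1. All 9 phosphodiesterases measured were detected, led by Pde1b at 22.4 ± 1.51 TPM, Pde4d at 20.6 and Pde4b at 18.7. Pde10a, the enzyme abundant in striatal projection neurons, stood at 11.0 ± 2.57, which was under 2-fold from Adcy5. The DARPP-32 circuit had 12 of 13 genes detected, led by the phosphatase catalytic subunit Ppp1ca at 80.7 TPM, the Cdk5 activator Cdk5r1 at 78.6 and Ppp1cc at 44.5; the exception was Ppp1r1c at 0.78 and 1.36. So genes of the phosphatase that DARPP-32 inhibits, and the activator of a kinase that phosphorylates DARPP-32, were abundant where Ppp1r1b itself was not.

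Receptor regulators were detected in 11 of 12 cases, with Caly, the calcyon gene, at 60.0 ± 3.73 TPM, Ncs1 at 38.7 and the receptor kinase Grk2 at 37.1, and Grk4 below 1 TPM. Rgs9, whose striatal form speeds the end of D2 signalling, stood at 7.59 ± 1.97. D2 receptors quiet dopamine neurons through channels of the G-protein-gated potassium family. Of the 4 subunit genes of that family 3 were detected, with Kcnj3 at 5.43, Kcnj9 at 2.78 and Kcnj6 at 2.56 TPM, and Kcnj5 at 0.41. Which of these subunits lie in dopamine neurons was not tested. Adenosine genes were detected in 4 of 7 cases, led by the nucleoside transporter Slc29a1 at 12.6 ± 3.52 TPM and with Nt5e, Ada and Adora3 below 1. The R3H-domain relatives of Arpp21 were all detected, with R3hdm4 at 21.1, R3hdm1 at 13.5 and R3hdm2 at 10.4 TPM, and Arpp21 was under 2-fold from R3hdm1 in both libraries.

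**Figure D5:**
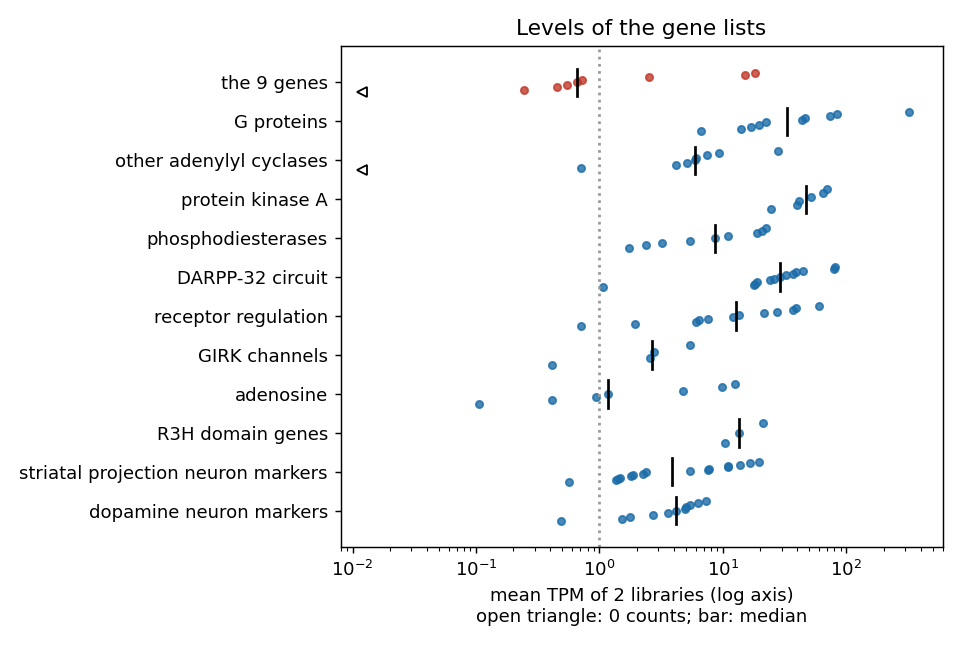
Mean TPM of the 2 libraries for each gene of each list, on a log axis, with the median of the list as a black bar and genes at 0 counts as open triangles; the dotted line marks 1 TPM. Most members lie left of the line, while the 10 G-protein genes and the 6 protein kinase A genes all lie right of it.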

How the data were processed

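Total RNA-seq of P0 mouse midbrain was analysed from the authors' gene and transcript tables, quantified on mm10 with GENCODE M4 according to the notes deposited with the tables. Which aligner and program were used is not given in the sources used here. Deposited by the authors were estimated counts, which need not be whole, TPM over all rows with 96 spike-ins included, FPKM (used only as an alternative), the percent of a gene's TPM on each transcript, and credibility bounds of TPM, which are on a signal scale and need not hold the TPM value itself. Symbols and coordinates came from GENCODE M21, which matched 42462 of 43346 Ensembl genes. Pde2a was not matched and is not analysed here. Promoters and the microRNA came from RefSeq; protein identity between the receptors was planned and is not analysed here.

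The members and gene lists were chosen with earlier results of these data known. All members were named, and from each list the 3 genes highest in mean TPM, genes below 1 TPM where absence is described, and both genes of named pairs, with a few other list genes (Gng7, Rgs9 and some marker genes) chosen after their values were seen. Some genes that this rule would name are not reported here.

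Levels were compared between genes as the log2 ratio of TPM + 0.1. A pair was called at 2-fold the same way in both libraries. Library ratios used rounded counts, TMM scaling (edgeR 4.0.16), a summed count of at least 10 and a prior count of 0.5, and were tested on simulated data. Intervals are exact 95% Poisson or conditional binomial. Total depth was 46685706 and 72779229 counts. Floors are 3 counts, and intervals and floors cover counting error only: these reads carry no molecular identifiers and may be copies of 1 molecule. Nothing was tested between conditions, because the labels give 1 group of 2 libraries. Alternatives included other scalings (DESeq2 1.42.0 size factors, library totals, spike-in totals), filters, pseudocounts, units and leaving out each replicate.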

Additional observations from a re-analysis of the deposited data

How the results depend on the processing

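With TPM on the protein-coding scale 8 members reached 1 TPM in both libraries, against 3 as reported. Between the libraries, 2 members were past 2-fold with the TPM ratio left unscaled and 0 with protein-coding transcripts only, against 1 as reported. The share of Drd2 among receptor genes was 51.1% on estimated counts, which are not per length, against a mean of 67.3% on TPM, and it was 61.1% to 73.5% when 1 library was left out. The log2 ratio of Arpp21 to Adcy5, 0.28 as reported, reversed to -1.33 with protein-coding transcripts only and to -0.29 without transcripts under 500 bases. By construction the first leaves out noncoding models, with a 2991-base transcript absent from M21, and the second leaves out short ones. With a pseudocount of 1, 18 of the pairs of members were called against 25 as reported. The 7 lost were 5 pairs with Drd3, Drd2 over Adora2a (0.78 and 1.32 on the log2 scale) and Drd2 over Ppp1r1b (1.29 and 0.92). The choices of protein-coding transcripts for the ratio between libraries and of short transcripts were made after seeing the data. Leaving out a replicate gave no ratio between libraries, which needs both. No paired analysis was possible because there is 1 group. Depth limits Drd3 and Drd4 most, and 2 libraries leave the order of Adora2a, Ppp1r1b, Drd1 and Drd5 unsettled.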
